A study of Mus musculus with 12 samples.

Results

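The angiopoietin and Tie receptor group comprised 8 genes chosen by name, out of 45706 genes in a table of length-corrected transcript abundances (TPM) from the BN1 murine hepatoblastoma (HB) cell line. Its members were Tek, Tie1, Angpt1, Angpt2, Angptl2, Angptl4, Angptl6 and Ptprb, and all 8 were found. They were read around Tek, also called Tie2, because a Tek promoter drives the EGFP reporter that was used to sort the cells. BN1 cells were derived from a murine HB generated with mutant forms of β-catenin and NRF2 and with Cdkn2a targeted by CRISPR. The study describes the targeting as a partial inactivation, and BN1 cells still expressed mutant or truncated forms of the ARF protein. All 4 groups shared this background and the Tie2-EGFP vector, carried as a pool of drug-selected clones. Unsorted cells were kept in normoxia at 21% oxygen (UN) or exposed to hypoxia at 1% oxygen for 2 days (UH). SN cells were those with the highest EGFP after 2 days of hypoxia, isolated by flow sorting and then expanded for about 10 days in normoxia. SH cells were SN cells returned to 1% oxygen for 2 days. Each group had 3 libraries, listed below in the order of their replicate numbers. The study calls them independent replicas without saying whether they were separate cultures, and p-values measure the spread between these libraries.

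Tek and Tie1 encode receptor tyrosine kinases found mainly on endothelial cells (ECs). Angpt1 is the activating ligand of Tek and Angpt2 is a ligand of the same receptor that often blocks it, while Ptprb (VE-PTP) is the phosphatase that removes phosphate from Tek. Angptl2, Angptl4 and Angptl6 are secreted proteins with angiopoietin-like structure that do not bind Tek or Tie1, and Angptl4 is best known as an inhibitor of lipoprotein lipase and as a gene induced by low oxygen and by fasting.

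The promoter of Tek is shown because it is the source of the reporter, and those of Angptl2 and Angptl6 because both genes rose in hypoxia in sorted and in unsorted cells. RefSeq sequences (GRCm38.p6) were matched for 4 of the 8 members and are shown for 3. Each is the 250 bases before the start that RefSeq gives, 5′ to 3′ on the gene's own strand. They span chr4:94739039-94739288 (+ strand) for Tek, chr2:33215711-33215960 (+ strand) for Angptl2 and chr9:20879711-20879960 (− strand) for Angptl6. Gene positions given further on are from GENCODE M21, whose starts can differ: the window of Angptl2 ends 108 bases before the GENCODE start, that of Angptl6 has 17 bases inside the GENCODE gene, and that of Tie1, not shown, has 212. Capitals mark matches to GGAA on either strand (TTCC on the strand shown), the core of the motif bound by ETS factors.
Tek: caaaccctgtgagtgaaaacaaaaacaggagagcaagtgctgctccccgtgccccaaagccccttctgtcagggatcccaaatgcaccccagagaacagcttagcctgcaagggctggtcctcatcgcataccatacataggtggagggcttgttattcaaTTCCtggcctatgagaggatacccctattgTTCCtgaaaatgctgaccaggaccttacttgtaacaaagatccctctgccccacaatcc
Angptl2: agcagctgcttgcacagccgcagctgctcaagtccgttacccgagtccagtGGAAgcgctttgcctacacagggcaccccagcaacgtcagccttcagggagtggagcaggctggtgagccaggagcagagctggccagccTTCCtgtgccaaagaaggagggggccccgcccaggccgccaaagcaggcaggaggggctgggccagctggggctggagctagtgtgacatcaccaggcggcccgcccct
Angptl6: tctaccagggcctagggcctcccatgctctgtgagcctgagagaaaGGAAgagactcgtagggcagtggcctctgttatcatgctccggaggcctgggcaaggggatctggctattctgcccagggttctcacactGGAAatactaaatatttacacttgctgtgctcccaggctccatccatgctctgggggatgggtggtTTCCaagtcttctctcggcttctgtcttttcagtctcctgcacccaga
Tek had 2 matches to GGAA, beginning 89 and 59 bases before its start. There were 2 matches for Angptl2 and 3 for Angptl6, and 93.4% of 32851 promoters of the same length held at least 1, with a median of 3. ACGTG and GCGTG, the cores of the motif bound by hypoxia-inducible factors, were searched on both strands and were in none of these 3 windows, against 16.6% and 28.2% of all promoters. A match is only a stretch of letters, and the window says nothing of enhancers. Whether the fragment in the reporter vector is the one shown is not given in the sources used here.

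Sequencing depth was unknown because TPM keep no read counts, and a library had 18901 to 22369 genes above 0. Groups were compared by limma on log2(TPM + 1) over the 18909 genes whose mean TPM reached 0.1. Genes were called where the p adjusted over all of them was under 0.05 and the change exceeded 2-fold. The hypoxia label was checked with 12 core hypoxia genes, of which 11 were called higher by hypoxia in unsorted and 11 in sorted cells. Of 12 hepatoblast and hepatocyte markers, 10 were tested, and 2 were called higher (Trf and Afp) and 6 lower in SN vs UN. Krt18 was between 63.5 and 157 TPM in all libraries, mean Dlk1 was 58.7 TPM in UN and 0.389 in SN, mean Krt8 was 65.5 and 4.78, and mean Trf was 2.17 and 47.2, while Alb did not exceed 4.23 TPM in any library. UN replicate 1 stood apart: 1003 genes (5.30%) were more than 2-fold from the mean of the other 2 UN libraries, against 205 to 434 genes for each of the other 11 libraries of the series. In UH vs UN, the median of all genes was −0.19 on the log2 scale and 0.00 after median-of-ratios scaling, so the members' changes in that comparison are also given on the second scale, and in SH vs UH these medians were 0.17 and 0.04.

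**Figure D1:**
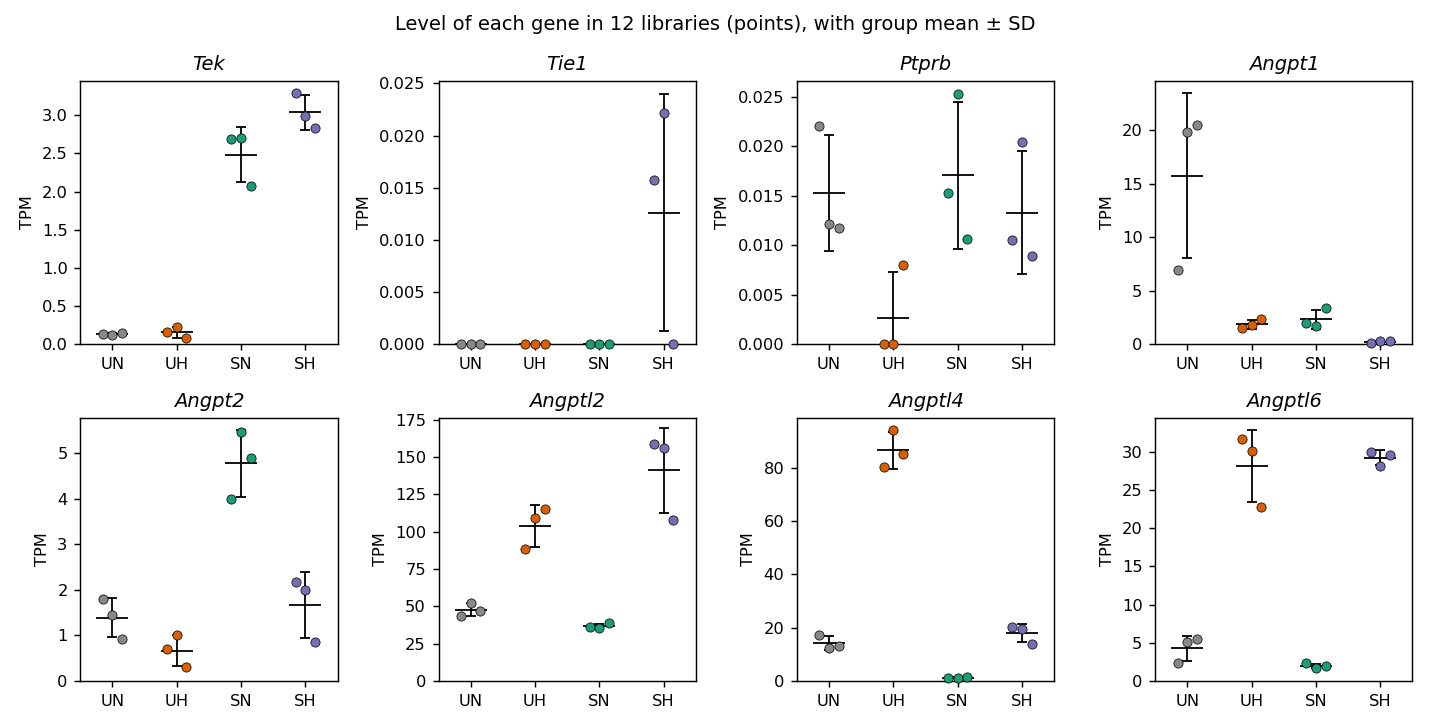
Level (TPM, linear axes starting at 0, each panel with its own scale) of the 8 genes in the 3 libraries of each group (points), with the group mean (horizontal bar) ± SD. Tek is above 2 TPM only in SN and SH libraries, Angpt1 is highest in UN, Angpt2 in SN and Angptl4 in UH.

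Of the 8 members, 6 passed the filter on low values, all but Tie1 and Ptprb, and each of the 6 was called in at least 1 of the 4 comparisons between pairs of groups. Hypoxia in unsorted cells called 4 of the 6 (Angptl2, Angptl4 and Angptl6 higher, Angpt1 lower), where 17.2% of all genes tested were called (5.46% higher, 11.8% lower). In sorted cells hypoxia called 5 of the 6, the same 4 in the same directions and Angpt2 lower, against 12.5% of all genes (7.47% higher, 5.0% lower). SN vs UN called 4 (Tek and Angpt2 higher, Angpt1 and Angptl4 lower), against 10.8% (3.20% higher, 7.57% lower), and SH vs UH called 3 (Tek higher, Angpt1 and Angptl4 lower), against 13.0% (7.65% higher, 5.35% lower). The libraries of the compared groups did not overlap for 4 of the 6 in UH vs UN (51.1% of all genes), for all 6 in SH vs SN (56.8%), for all 6 in SN vs UN (49.0%) and for 3 in SH vs UH (51.7%). The comparisons share libraries with each other, so their counts are not independent. The called shares over all genes include genes too low to change 2-fold on log2(TPM + 1), whereas all 6 tested members averaged at least 1 TPM. Scaling shifted the balance over all genes but none of the members' calls: with median-of-ratios scaling 1564 genes were higher and 1221 lower in UH vs UN (1032 and 2222 on TPM as deposited) and 1023 and 1321 in SH vs UH (1447 and 1012), and with quantile normalization 840 and 1136 in SN vs UN (606 and 1431). In bulk samples, fewer cells of a type and less RNA per cell cannot be told apart.

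**Figure D2:**
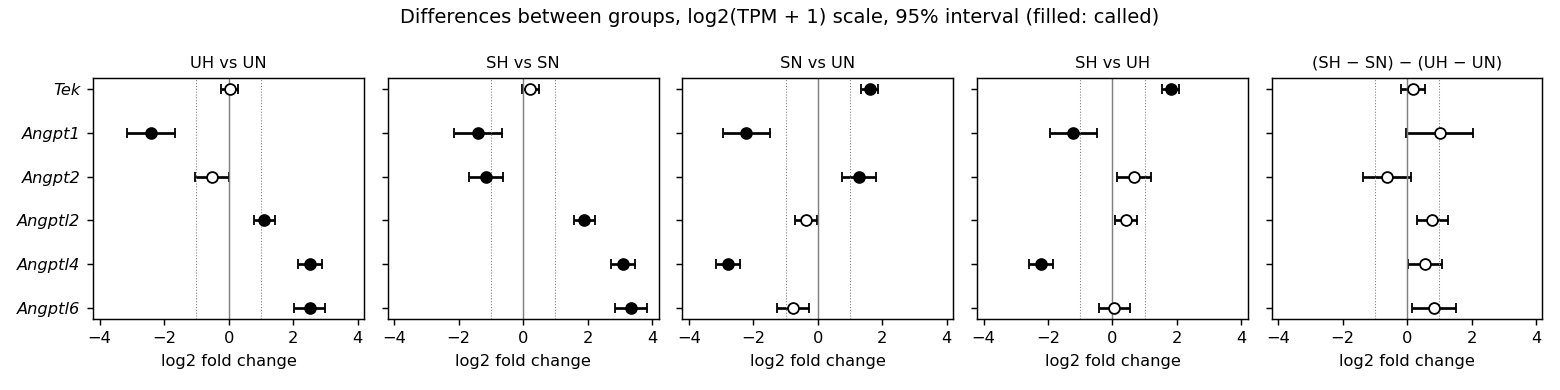
Log2 fold change on the log2(TPM + 1) scale with its 95% interval for the 6 tested members in 4 comparisons and in the hypoxia response of sorted cells minus that of unsorted cells. Filled points were called, open points were not, and dotted lines mark a 2-fold change. No member is called in the last panel.

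Among the receptors, Tek (ENSMUSG00000006386, chromosome 4 from 94739289 to 94874976, + strand, GRCm38) was at 0.133, 0.124 and 0.141 TPM in the 3 UN libraries and at 0.158, 0.226 and 0.0853 in the UH libraries. In the sorted cells it was at 2.69, 2.70 and 2.07 TPM in SN and at 3.29, 3.00 and 2.83 in SH. The unsorted groups overlapped, and every sorted library was above every unsorted one. The mean was 0.133 ± 0.00874 TPM in UN, 0.157 ± 0.0705 in UH, 2.49 ± 0.360 in SN and 3.04 ± 0.232 in SH (SD, n = 3). Mean TPM was 18.7-fold higher in SN than in UN, and SH was 19.4-fold above UH. Because the cells were sorted on EGFP driven by a Tek promoter, this difference is not independent of the sort. On the log2(TPM + 1) scale, which understates changes of genes this low, the difference was 1.62 (SN vs UN) and 1.80 (SH vs UH) with a standard error (SE) of 0.121 for both, and 4.12 and 4.29 with a pseudocount of 0.01.

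Hypoxia called no change of Tek in unsorted or in sorted cells. The study likewise saw no rise of Tek in UH, which it attributed to how few of those cells were EC-like. Its Tie2-EGFP reporter was strong in a subpopulation of BN cells in hypoxia. In UH the bulk level of Tek did not exceed 0.226 TPM, so it does not show what a small part of the cells did. UH vs UN gave a log2 fold change of 0.03 (95% interval −0.24 to 0.29, adjusted p = 0.880), which was 0.08 after median-of-ratios scaling, and leaving out UH replicate 2 turned it to −0.01. SH vs SN gave 0.22 (95% interval −0.05 to 0.48, adjusted p = 0.181) on TPM as deposited, and −0.04 after quantile normalization. The SH libraries lay above all SN libraries, although 56.8% of all genes tested likewise had groups that did not overlap in that comparison.

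The other components of the receptor complex were close to 0. Tie1 (ENSMUSG00000033191, chromosome 4 from 118471191 to 118490061, − strand), the paralog that pairs with Tek, was listed at 0 in 10 of 12 libraries and at 0.0157 and 0.0222 TPM in SH replicates 1 and 2. Ptprb (ENSMUSG00000020154, chromosome 10 from 116275523 to 116389535, + strand) was listed at 0 in 2 UH libraries and did not exceed 0.0252 TPM in any library. The sorted cells with Tek at 2.07 to 3.29 TPM thus had Tie1 and Ptprb at no more than 0.0222 and 0.0252 TPM, and neither gene was tested.

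Of 13 further EC markers, 8 passed the filter. In SN vs UN 1 was called higher (Plvap) and 2 lower (Eng and Egfl7), and in SH vs UH 1 was higher (Esam) and 3 lower (Eng, Flt1 and Egfl7). Hypoxia called 3 higher in unsorted cells (Plvap, Eng and Flt1) and 5 in sorted cells (Vwf, Flt1, Plvap, Esam and Eng), and none lower. Eng was at 41.4, 8.88 and 8.67 TPM in UN and at 34.8, 43.6 and 41.1 in UH, so these groups overlapped through UN replicate 1. Its call in UH vs UN was lost when only these groups were fitted. Leaving out UN replicate 2, UN replicate 3, UH replicate 2 or UH replicate 3 also lost it. Their summed level was 22.9 to 55.2 TPM in UN libraries, 63.2 to 78.1 in UH, 7.85 to 8.71 in SN and 20.9 to 30.2 in SH, so it was lowest in SN, where Tek was high. Eng, a coreceptor for transforming growth factor β, averaged 19.6, 39.8, 1.14 and 6.30 TPM in UN, UH, SN and SH. Flt1, a receptor for vascular endothelial growth factor, averaged 2.52, 23.0, 1.33 and 3.86, and Egfl7 10.4, 7.35, 1.91 and 2.55. These genes made up most of the sum in UN and UH. Other markers called higher by hypoxia in sorted cells were highest in SH. Esam averaged 0.800, 0.836, 2.09 and 7.24 TPM, Plvap 0.156, 1.57, 1.34 and 4.13, and Vwf 0.273, 0.229, 0.103 and 1.26. Of the defining EC markers, Pecam1 did not exceed 0.484 TPM in any library and Cdh5 did not exceed 0.0967. Both maxima were in SH, where Pecam1 was at 0.394, 0.484 and 0.197 TPM, above every library of the other groups.

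Of the ligands, Angpt1 (ENSMUSG00000022309, chromosome 15 from 42424723 to 42676977, − strand) had the widest range of the angiopoietins. It was at 6.92, 19.8 and 20.5 TPM in UN, at 1.49, 1.84 and 2.33 in UH, at 1.98, 1.71 and 3.35 in SN and at 0.136, 0.306 and 0.269 in SH. UN was above all other groups, UH and SN overlapped, and SH was below all others. Hypoxia lowered mean Angpt1 by 8.36-fold in unsorted and by 9.89-fold in sorted cells. The corresponding log2 fold changes were −2.41 (SE 0.336, adjusted p = 0.000115) in UH vs UN, −2.14 after median-of-ratios scaling, and −1.41 (adjusted p = 0.00564) in SH vs SN. Sorted cells had less Angpt1 than unsorted ones in normoxia (mean TPM 6.73-fold lower, log2 fold change −2.22, adjusted p = 0.000391) and in hypoxia (7.96-fold lower, log2 fold change −1.21, adjusted p = 0.0127). With a pseudocount of 0.01 the 2 comparisons with SH gave −3.27 (SH vs SN) and −2.99 (SH vs UH). Between UN and SH the mean differed 66.5-fold. An antisense gene, Gm17473, shares 737 exonic bases with Angpt1 and averaged 0.0915 TPM in UN and 0 in the other groups.

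The library that stood apart bears on the size of this result. UN replicate 1 had less Angpt1 (6.92 TPM) than the other UN libraries. Without it the log2 fold change was −2.89 in UH vs UN and −2.69 in SN vs UN, so Angpt1 fell in both with and without it. Of 8 tested pericyte and stromal markers, 4 were called lower in SN vs UN (Col3a1, Col1a1, Pdgfra and Acta2) and none higher, with Pdgfrb at 0.11, Dcn at −0.18 and Des at 0.49. Their summed level was 1050 to 4496 TPM in UN, 4139 to 6123 in UH, 200.5 to 211 in SN and 56.2 to 77.5 in SH. Pdgfra, the platelet-derived growth factor receptor of mesenchymal cells, was at 80.4, 168 and 176 TPM in UN and at 1.38, 1.21 and 2.17 in SN. UN replicate 1, with the least Angpt1 of its group, had the highest stromal sum of its group (4496 TPM). Hypoxia in unsorted cells called 2 of these 8 markers higher and 3 lower. Pdgfra (log2 fold change −2.24), Pdgfrb (−1.37) and Dcn (−1.32) fell, and the calls of Pdgfrb and Dcn were lost in 1 and 7 of 21 alternatives. The fibrillar collagens Col1a1 (2.25) and Col3a1 (2.01) were called higher, Col1a1 in all 21 alternatives. Col3a1 was at 1960, 222 and 173 TPM in UN and at 1273, 2144 and 1824 in UH, so UN replicate 1 lay within UH. The call of Col3a1 was lost in 7 of 21 alternatives, among them quantile normalization and leaving out UN replicate 2 or UN replicate 3. The part of stromal cells in the level of Angpt1 was not tested.

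Angpt2 (ENSMUSG00000031465, chromosome 8 from 18690263 to 18741562, − strand) had the opposite order across sorting. It was at 1.80, 1.44 and 0.931 TPM in UN, at 0.697, 0.999 and 0.303 in UH, at 3.99, 5.46 and 4.89 in SN and at 2.17, 1.99 and 0.848 in SH. Only SN stood clear of the other groups, and neighbours in the order SH, UN and UH overlapped. Angpt2 rose in SN vs UN, where the mean was 3.44-fold higher (log2 fold change 1.28, SE 0.239, adjusted p = 0.00156), and fell in SH vs SN, where it was 2.86-fold lower (log2 fold change −1.15, adjusted p = 0.00251). The second call was lost without SH replicate 3, at a log2 fold change of −0.90. In UH vs UN the log2 fold change was −0.53 (95% interval −1.05 to −0.00, adjusted p = 0.0940) and did not pass, nor did it at −0.35 after median-of-ratios scaling or at −1.16 with a pseudocount of 0.01. In SH vs UH it was 0.66 (adjusted p = 0.0437), under the 2-fold threshold, and with pseudocounts of 0.1 and 0.01 it was 1.22 and 1.36 and was called. Angpt2 lies within Mcph1 on the opposite strand without sharing exonic bases. Mean Mcph1 was 7.33 TPM in UN, 3.28 in UH, 9.59 in SN and 5.88 in SH. Both genes were highest in SN and lowest in UH, while mean SH was below UN for Mcph1 and above it for Angpt2.

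The balance of the RNA of the 2 ligands reversed between unsorted and sorted cells. The ratio of Angpt2 to Angpt1 TPM was 0.260, 0.0725 and 0.0453 in UN, 0.468, 0.544 and 0.130 in UH, 2.01, 3.20 and 1.46 in SN and 16.0, 6.49 and 3.15 in SH. It was below 1 in all 6 unsorted libraries and above 1 in all 6 sorted libraries. In SH the ratio rests on low values of Angpt1 (0.136, 0.306 and 0.269 TPM), and Angpt2 itself was not called in SH vs UH with a pseudocount of 1. Sorted and unsorted cells differed in the mean log2 ratio by 4.48 in normoxia and by 4.43 in hypoxia, each with an exact two-sided permutation p = 0.1, the smallest that 3 libraries against 3 allow. Hypoxia moved it by 1.76 in unsorted and 1.71 in sorted cells, with overlapping groups (exact permutation p = 0.2 for both).

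**Figure D3:**
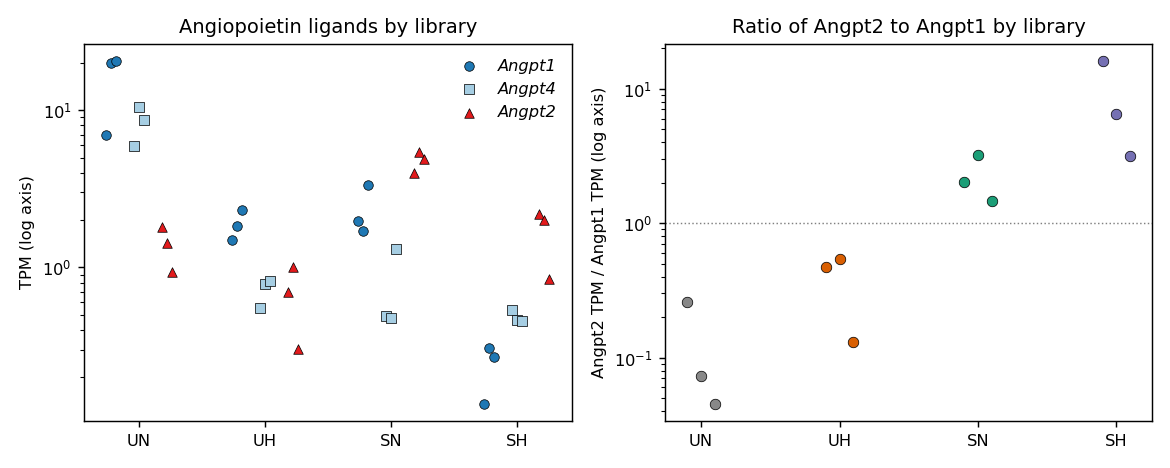
Left, TPM (log axis) of the Tek ligands Angpt1, Angpt4 and Angpt2 in each library. Right, the ratio of Angpt2 to Angpt1 TPM in each library (log axis), with a dotted line at 1. The 6 unsorted libraries lie below the line and the 6 sorted libraries above it.

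Angpt4, the third ligand of Tek, was at 5.89, 10.5 and 8.66 TPM in UN and below 1.4 TPM in every other library. It fell in UH vs UN (log2 fold change −2.42, SE 0.214, adjusted p = 3.81e-06) and in SN vs UN (−2.41, adjusted p = 7.33e-06). In SH vs SN it was −0.21 (adjusted p = 0.472), from a level in SN of 0.493, 0.475 and 1.32 TPM. Unlike Angpt1, which fell again when sorted cells were returned to hypoxia, Angpt4 was thus already low in SN, and its hypoxia response in sorted cells differed from that in unsorted cells (by 2.20 on the log2 scale, adjusted p = 0.000615).

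The angiopoietin-like genes were the members that rose with hypoxia. Angptl4 (ENSMUSG00000002289, chromosome 17 from 33773750 to 33781830, − strand) was at 17.1, 12.5 and 13.2 TPM in UN, at 80.2, 94.2 and 85.2 in UH, at 0.952, 1.15 and 1.56 in SN and at 20.2, 19.6 and 14.0 in SH. UH was the highest group and SN the lowest, and the SH libraries overlapped those of UN. Mean Angptl4 rose 6.07-fold in UH vs UN (log2 fold change 2.53, SE 0.170, adjusted p = 5.50e-07, 2.87 after median-of-ratios scaling) and 14.7-fold in SH vs SN (3.08, adjusted p = 2.76e-07). It was 11.7-fold lower in SN than in UN (log2 fold change −2.78) and 4.83-fold lower in SH than in UH (−2.22). The mean was 17.9 ± 3.40 TPM in sorted cells in hypoxia and 14.3 ± 2.49 in unsorted cells in normoxia (SD, n = 3). An exact permutation test of these 2 groups gave p = 0.2, where 0.1 is the smallest possible, so it cannot show that the levels were equal. Of the 12 core hypoxia genes, 1 was called lower in SN vs UN (Egln3) and 3 in SH vs UH (Adm, Egln3 and Car9).

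Angptl6 (ENSMUSG00000038742, chromosome 9 from 20873808 to 20879727, − strand) was at 2.37, 5.05 and 5.43 TPM in UN, at 31.7, 30.1 and 22.8 in UH, at 2.29, 1.70 and 1.94 in SN and at 30.0, 28.1 and 29.6 in SH. Both hypoxic groups were above both normoxic ones and overlapped each other. Angptl6, a circulating factor known for raising energy expenditure in mice, rose 6.59-fold in UH vs UN (log2 fold change 2.51, SE 0.223, adjusted p = 3.93e-06, 2.83 after median-of-ratios scaling) and 14.8-fold in SH vs SN (3.35, adjusted p = 8.98e-07). In hypoxia the sorted and unsorted cells differed by 0.06 (95% interval −0.43 to 0.55, adjusted p = 0.849), a value that turned to −0.15 after median-of-ratios scaling, to −0.09 after quantile normalization and to −0.08 without UH replicate 3. In normoxia SN was below UN by −0.78 (adjusted p = 0.0187), under the 2-fold threshold, and without UN replicate 1, whose Angptl6 was the lowest of its group, it was −1.07 and was called. Angptl6 shares 265 exonic bases with A230050P20Rik on the opposite strand, whose mean was 13.5 TPM in UN, 6.92 in UH, 0.191 in SN and 1.57 in SH, and the strand setting of the counting is not given in the sources used here.

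Angptl2 (ENSMUSG00000004105, chromosome 2 from 33216069 to 33247717, + strand), a secreted protein linked to inflammation, had the highest mean TPM of all members in every group. It was at 43.4, 52.3 and 47.1 TPM in UN, at 88.0, 109 and 115 in UH, at 36.2, 35.3 and 38.5 in SN and at 159, 156 and 108 in SH. The hypoxic groups overlapped, and both were above the normoxic ones. Angptl2 rose 2.19-fold in UH vs UN (log2 fold change 1.11, SE 0.151, adjusted p = 0.000101, 1.46 after median-of-ratios scaling) and 3.84-fold in SH vs SN (1.89, adjusted p = 3.11e-06). Sorted and unsorted cells differed by −0.36 in normoxia (adjusted p = 0.0862) and by 0.42 in hypoxia (adjusted p = 0.0420, under the 2-fold threshold).

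Whether the response to hypoxia differed between sorted and unsorted cells was tested as (SH − SN) − (UH − UN). No member was called by limma, where 10.3% of all genes were (8.08% higher, 2.18% lower; 1527 and 412 genes, and 904 and 779 after median-of-ratios scaling), and 3 of 6 had an unadjusted p under 0.05 (Angptl2, Angptl4 and Angptl6). Angptl2 had an adjusted p of 0.0230 at a difference of 0.79 on the log2 scale (95% interval 0.32 to 1.26), under the 2-fold threshold, beside a median of 0.25 over all genes. After median-of-ratios scaling the difference for Angptl2 was 0.45 and the median over all genes 0.03. The difference for Angpt1 was 1.01 (95% interval −0.03 to 2.05), and it turned to −0.35 with a pseudocount of 0.01. Without UN replicate 1 it was 1.48 for Angpt1 (adjusted p = 0.00289) and 1.13 for Angptl6 (adjusted p = 0.00215), and both were called. With a pseudocount of 0.1, Angptl4 was called at 1.17.

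**Figure D4:**
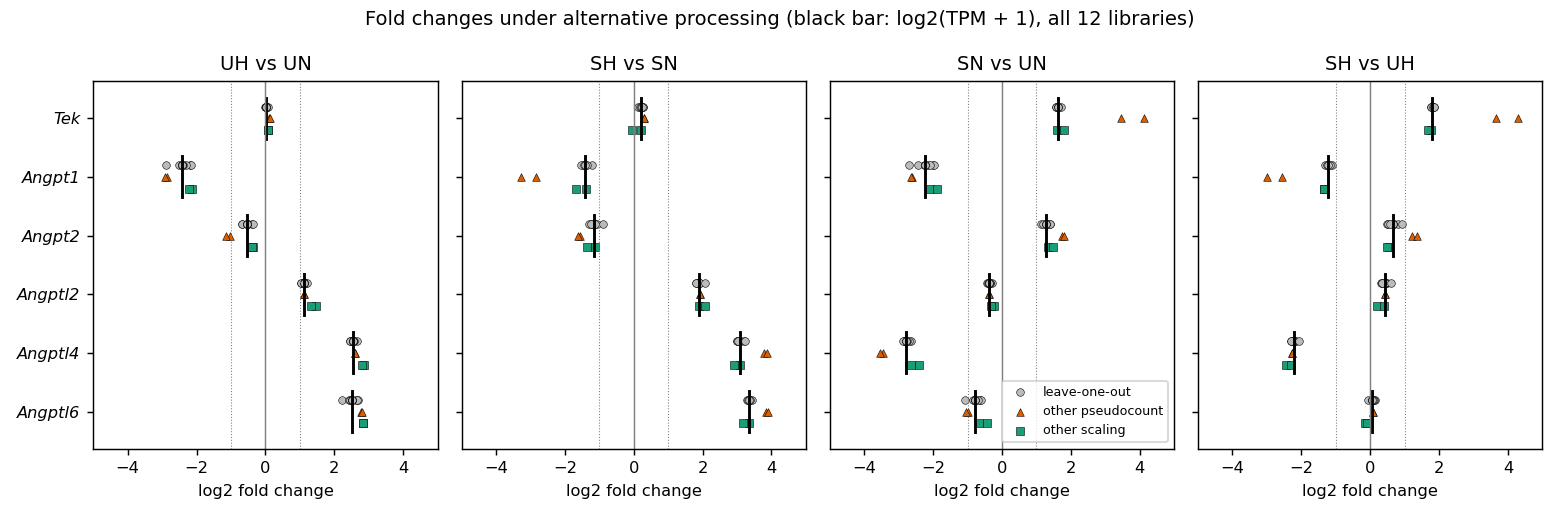
Log2 fold change of the 6 tested members in 4 comparisons, on log2(TPM + 1) with all 12 libraries (black bars), with each library left out (grey circles), with pseudocounts of 0.1 and 0.01 (orange triangles) and with median-of-ratios scaling or quantile normalization (green squares). Smaller pseudocounts move the values of Tek in both comparisons of sorted with unsorted cells, and those of Angpt1 in both comparisons with SH, the farthest, and no called value crosses 0.

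Genes that act around the receptor were read as a list of 20 Tie pathway partners, of which 19 passed the filter. For UH vs UN, 1 was called higher and 4 lower, with a median log2 fold change of −0.23 (−0.19 over all genes), and after median-of-ratios scaling 2 were higher and 3 lower. Klf2, an endothelial transcription factor, rose (1.97), and Angpt4, Svep1, Grb14 and Pik3r1 fell, Pik3r1 by 1.09 on the log2 scale on TPM as deposited but not past the threshold after either scaling. In SH vs SN 2 were higher and none lower (median −0.05, all genes 0.03): Klf2 (1.37) and Tnip2 (1.04), an inhibitor of NF-κB that was not called without SH replicate 1 or without SH replicate 2. In SN vs UN 1 was higher and 3 lower (median −0.43, all genes −0.06), with Grb7, an adaptor that binds Tek, at 2.29, from 10.7, 4.05 and 3.74 TPM in UN to 30.3, 35.3 and 27.8 in SN. In SH vs UH 1 was higher and 2 lower (median −0.06, all genes 0.17), with Grb7 at 1.38, Klf2 at −1.38 and Svep1 at −1.13.

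Svep1, an extracellular protein that binds Tie1, showed the largest fall of the list in SN vs UN. It was at 5.29, 5.26 and 6.01 TPM in UN, at 0.708, 1.64 and 1.40 in UH and at no more than 0.0354 in any sorted library. The log2 fold change was −1.56 (SE 0.153, adjusted p = 8.33e-06) in UH vs UN and −2.67 (adjusted p = 2.32e-07) in SN vs UN. Lect2, another ligand of Tie1, was between 0.253 and 1.47 TPM and was called in none of the 4 comparisons. Foxo1, the transcription factor downstream of Tek that activates Angpt2 in ECs, was also called in none of them, with log2 fold changes between −0.90 (SN vs UN) and 0.77 (SH vs SN). The fall in SN vs UN was called with pseudocounts of 0.1 and 0.01 and without UN replicate 1.

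**Figure D5:**
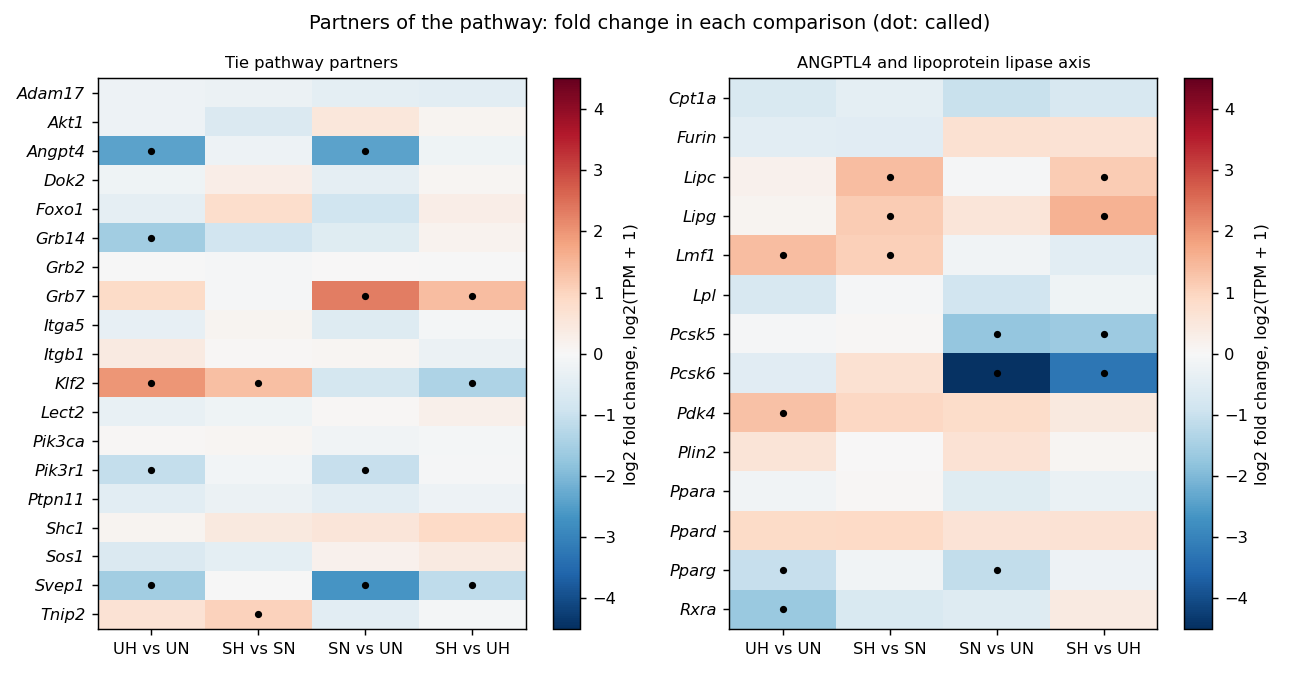
Log2 fold change on the log2(TPM + 1) scale (colour, red higher and blue lower in the first-named group) of the tested Tie pathway partners (left) and of the tested genes around Angptl4 and lipoprotein lipase (right) in 4 comparisons, with a dot where the gene was called. Svep1 and Angpt4 are the deepest blue on the left and Pcsk6 on the right.

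Around Angptl4, 14 of 16 genes of the lipoprotein lipase axis were tested, and Gpihbp1, which anchors the lipase to capillaries, was listed at 0 in every library. Lpl itself was at 0.802, 1.21 and 1.01 TPM in UN and at no more than 0.331 in the other groups, and its changes of −0.71 in UH vs UN and −0.85 in SN vs UN stayed under the 2-fold threshold with a pseudocount of 1. With pseudocounts of 0.1 and 0.01 both falls were called, and over all alternatives they reached −2.19 and −3.23. Counts called were 2 higher and 2 lower in UH vs UN (median −0.11, and 3 and 1 after median-of-ratios scaling), 3 and 0 in SH vs SN (0.06), 0 and 3 in SN vs UN (−0.35) and 2 and 2 in SH vs UH (−0.04). Lmf1, which matures lipases, rose with hypoxia in unsorted (1.38) and sorted cells (1.08). Pcsk6, a convertase of the family that cleaves ANGPTL4, was at 84.6, 188 and 197 TPM in UN and at 5.22, 6.87 and 5.24 in SN, a log2 fold change of −4.45 (SE 0.336, adjusted p = 1.96e-06), and its relative Pcsk5 fell by 1.75. The lipases Lipc and Lipg rose in SH vs SN. Lipc was listed at 0 in every SN library and was at 1.99, 2.17 and 0.831 TPM in SH, and the log2 fold change of Lipg was 1.14, a call lost after quantile normalization. Of the nuclear receptors that act on Angptl4, Rxra (−1.66) and Pparg (−1.03) fell in UH vs UN, and Pparg fell in SN vs UN (−1.10). Ppard went the other way with hypoxia, by 0.87 in UH vs UN (limma adjusted p = 0.000295) and 0.91 in SH vs SN (adjusted p = 0.000281). Both were under the 2-fold threshold, and the first was called after median-of-ratios scaling and after quantile normalization. Neither call of Pparg was kept after median-of-ratios scaling or quantile normalization, or without UN replicate 2 (nor without UN replicate 3).

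Of the other angiopoietin-like genes, Angptl8, an Angptl4 partner in lipid handling, passed the filter on low values. It was at 15.3, 16.0 and 13.8 TPM in UN, at 12.4, 13.0 and 8.07 in UH, at 12.3, 11.4 and 19.2 in SN and at 24.1, 26.7 and 37.6 in SH. Only SH stood above the other groups. The log2 fold change was 1.00 (adjusted p = 0.00406) in SH vs SN, which was not called without SN replicate 1, SN replicate 2 or SH replicate 3, and 1.33 (adjusted p = 0.000670) in SH vs UH. Angptl1 and Angptl7 did not exceed 0.185 TPM.

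Of 15 ETS, GATA and related endothelial transcription factors, 10 were tested, and Etv2 was listed at 0 in every library. In SN vs UN 1 was called higher and none lower (median 0.12, all genes −0.06): Ets2, an ETS factor, was at 54.6, 47.3 and 63.5 TPM in UN and at 169, 125 and 185 in SN (log2 fold change 1.51, adjusted p = 0.00155). In SH vs SN 2 fell and none rose (median −0.40), Ets2 (−1.06) and Fli1 (−1.05), and Ets2 was not called after quantile normalization, without SN replicate 3 or without SH replicate 3. Hhex was called lower in UH vs UN (−1.51) and higher in SH vs UH (1.24), where Ets2 was also called (1.00) but not after either scaling.

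The genes most like each member over the 12 libraries were found among 14902 genes with a mean of at least 1 TPM in some group, by the root mean square (RMS) difference of centred log2(TPM + 1) values. For Tek, whose own profile had an RMS of 0.86, they were Slc13a2os (0.18), Fam132b (0.19), Traf1 (0.20), Gm13387 (0.21) and Urah (0.21). For Angpt1 (own RMS 1.36) they included Ak5 (0.27), Iigp1 (0.35), Cmtm3 (0.40) and Rassf2 (0.40), and for Angpt2 (0.71) they were Hlf (0.23), Bpgm (0.24), Mesdc1 (0.24), Gimap4 (0.26) and Tns2 (0.27). No angiopoietin or other member was among the nearest genes of another member. Synm (0.14), 6430548M08Rik (0.15), Exoc3l (0.16), Spidr (0.17) and Mettl23 (0.17) were nearest to Angptl2 (0.79). Kdelr3 (0.38), Ccdc109b (0.43), Egln3 (0.44), Igfbp3 (0.47) and Htra1 (0.47) were nearest to Angptl4 (1.89), and Egln3, an oxygen sensor, was at 20.8, 117, 3.28 and 26.1 TPM on average in UN, UH, SN and SH. Clybl (0.27), P4hb (0.32), Trib3 (0.33) and Gys1 (0.34) were among the nearest to Angptl6 (1.51). The points share libraries, and no test was made on these values.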

How the data were processed

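RNA from 12 libraries of BN1-Tie2-EGFP cells (3 per group) was sequenced by the authors with a stranded mRNA kit. Reads were run through nf-core/rnaseq 3.12.0 with the mm10 build, per the submitters' processing notes. The authors deposited TPM per gene from Salmon, which are corrected for length and sum to the same total in each library, so depth and counting error are unknown. A count model could not be used, and limma 3.58.1 in R 4.3.3 was run on log2(TPM + 1) with 1 mean for each of 4 groups, a trend and Benjamini-Hochberg adjustment over the 18909 genes whose mean TPM reached 0.1. Calls needed an adjusted p under 0.05 and an absolute log2 fold change above 1. Oxygen levels and days come from the study's methods. Gene coordinates are from GENCODE M21 (98.8% of identifiers matched), and Angptl8 was matched by identifier. The test was checked on simulated data in which only genes with higher levels in UN were changed, so the check does not cover low genes such as Tek. Figures were drawn with matplotlib 3.10.9 in Python 3.11.15.

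The members and lists were chosen with earlier results of these data known. The genes named were all 8 members, genes of a list that were called (at most 5 per direction), Lpl, Svep1, Lect2, Angpt4 and Foxo1 as direct partners, and the 5 nearest profiles of each called member. Some genes that this rule names are not reported here. The values given for the marker genes Col1a1, Col3a1, Eng, Flt1, Egfl7, Esam, Plvap, Vwf, Pecam1, Cdh5, Alb, Krt18, Krt8, Dlk1, Trf, Pdgfrb, Dcn and Des, and for Ppard, were chosen after they were seen. Alternatives were other pseudocounts, filters, scalings, no trend, a block for replicate number, fitting only the groups compared, and leaving out each library.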

Additional observations from a re-analysis of the deposited data

Results flagged for a closer look

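By limma's test of (SH − SN) − (UH − UN) on the log2 scale, the response to hypoxia differed between sorted and unsorted cells for 5 of 34 tested genes of the Tie pathway, angiopoietin-like and lipoprotein lipase lists, all 5 higher, and for no member. Over all genes 10.3% were called (8.08% higher), and the median difference was 0.25. The difference was 2.20 for Angpt4 (adjusted p = 0.000615, 1.72 to 3.03 over the alternatives), which fell in unsorted cells and was already low in SN. It was 1.54 for Svep1 (adjusted p = 0.000707), likewise near 0 in all sorted libraries, and this call was lost with a pseudocount of 0.01. For Angptl8 it was 1.43 (adjusted p = 0.00929), a call lost under median-of-ratios scaling and quantile normalization. For Lipc it was 1.17 (adjusted p = 0.00733, 1.01 to 4.83 over the alternatives), where Lipc was listed at 0 in every SN library. For Lipg it was 1.02 (adjusted p = 0.00759), and this call was lost under both smaller pseudocounts, both scalings and without any of UN replicate 1, UH replicate 1, SN replicate 2, SH replicate 1 or SH replicate 2. Groups of 3 libraries were not tested for outlying samples.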

How the results depend on the processing

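Of 624 alternative values for single members, 607 kept direction and side of the threshold, 9 newly passed it, 1 no longer passed it and 7 changed sign. The changes of sign were all in values that were not called: Tek in UH vs UN (−0.015 without UH replicate 2, and −0.015 to 0.073 over all left-out libraries), in SH vs SN (−0.043) and in the difference of responses (−0.11), both after quantile normalization; Angptl6 in SH vs UH (−0.15 with median-of-ratios scaling, −0.091 with quantile normalization, −0.077 without UH replicate 3, and −0.077 to 0.15 over all left-out libraries); and Angpt1 in the difference of responses (−0.35, pseudocount 0.01). The number of members called in the difference of responses was 0, and 1 with pseudocounts of 0.1 and of 0.01, with a range of 0 to 2 when a library was left out, the 2 without UN replicate 1. In SH vs SN, 4 to 5 members were called with a library left out, and the 4 came without SH replicate 3.

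Counts over all genes moved more. In UH vs UN, 1580 were higher with a pseudocount of 0.1 and 1564 with median-of-ratios scaling (main 1032), and 1221 and 1343 were lower with median-of-ratios scaling and quantile normalization (main 2222), so the share of higher calls went from 31.7% to 56.2%. In SH vs SN, 2854 and 2778 were higher with pseudocounts of 0.1 and 0.01. In SN vs UN the same pseudocounts gave 990 and 992 higher and 2402 and 2443 lower, and in SH vs UH 2810 and 2683 higher and 1550 and 1530 lower. In the difference of responses, median-of-ratios scaling gave 904 higher and 779 lower, quantile normalization 772 and 745, and leaving out a library 1266 to 2110 higher and 335 to 636 lower. Beyond the wider changes that a smaller pseudocount gives to low genes, the cause was not tested.

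Residuals of same-numbered libraries correlated between −0.06 and 0.14, so no clear pairing by replicate number was seen. With 3 libraries per group this cannot exclude pairing, and the sources used here do not say whether libraries were paired. With the replicate number as a block, 4 members were called in UH vs UN, 5 in SH vs SN, 4 in SN vs UN, 3 in SH vs UH and 0 in the difference of responses, and no member's call changed. TPM hold no depth, so the precision of low genes such as Tie1 and Ptprb cannot be given.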
